A study of Homo sapiens with 6 samples.

Results

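The 10 genes described here are CLEC4E, which encodes the receptor Mincle, and 9 genes of the nuclear factor κB (NF-κB) pathway. The latter are the inhibitor genes NFKBIA and TNFAIP3, the IκB family gene NFKBIZ, the subunit genes NFKB1, NFKB2, RELA and RELB, and the target genes BIRC3 and ICAM1. They were chosen by symbol from 38100 genes in the count table. CLEC4E was selected on its difference between the groups in these same samples, so its values are given as a description and without a test. The other 9 genes were chosen for their place in the pathway, with earlier results of these data known. All 10 genes were among the 17720 genes that passed the filter on low counts.

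NF-κB is a family of dimeric transcription factors that inhibitor proteins of the IκB type hold in the cytoplasm of resting cells. Receptors such as those for tumour necrosis factor, interleukin-1 and CD40 activate the IκB kinase (IKK), the inhibitor is degraded, and the freed dimers enter the nucleus. Among the genes they switch on are those of their own inhibitors, which gives the pathway a negative feedback. Mincle is a C-type lectin receptor best known from macrophages, where it senses microbial glycolipids and products of dying cells. It pairs with the adaptor FCER1G and signals through the kinase SYK and the CARD9, BCL10 and MALT1 complex to NF-κB.

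The sequenced RNA came from HK2, an established human cell line derived from the proximal tubule, with the genotype labelled WT. The AdCtrl samples carried an empty control adenovirus and the AdSirt4 samples an adenovirus that overexpresses SIRT4, and there were 3 samples in each group. Every sample in both groups had also been stimulated with TGF-beta1, so no sample lacked the virus or the cytokine, and neither effect can be read from these data. The study describes its replicates in vitro as technical, and no label names separate cultures, so the p-values measure only the spread between these samples. In the cell line field the number after HK differs between the samples, whereas all titles name HK2.

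Total counts lay between 41537353 and 85684748 per sample, and a count of 0 allows at most 0.0348 to 0.0770 CPM (counts scaled to a common library size), a limit that covers counting error only. SIRT4, the overexpressed gene, was at 0.930 ± 0.309 CPM (SD, n = 3) in AdCtrl and at 76.0 ± 21.9 CPM (n = 3) in AdSirt4, a log2 fold change of 6.36 (adjusted p = 0.00801, edgeR's quasi-likelihood test). AdSirt4 replicate 1 stood apart from the other samples of its group by transcript length. Across 17720 genes, the Spearman correlation between a gene's deviation from its group mean and its length was -0.58 in this sample, against 0.49 and 0.51 in AdSirt4 replicates 2 and 3. Its log2 CPM exceeded the mean of those 2 samples by a median of 0.68 in the shortest of 10 length bins, and the median difference was -0.75 in the longest bin. The log2 fold change of each of the 10 genes, and the counts over them and over the target list, are therefore given with and without it. The AdSirt4 libraries left in that fit, replicates 2 and 3, held 85684748 and 80040053 counts, against 42102861 to 53677241 in AdCtrl. Library depth and group cannot be told apart in that fit. In a bulk sample, fewer cells of a type and less RNA per cell cannot be told apart.

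CLEC4E lies on chromosome 12 (chr12:8533275-8540905, RefSeq, GRCh38.p14). Its level, with samples in the order of their replicate numbers here and below, was 7.66, 8.05 and 7.65 CPM in AdCtrl and 21.6, 17.0 and 21.3 CPM in AdSirt4. All 3 AdSirt4 samples were above all 3 AdCtrl samples, and the control samples were close to each other. The raw counts behind these levels were 414, 342 and 393 in AdCtrl and 840, 1469 and 1728 in AdSirt4. The group means were 7.79 ± 0.229 and 20.0 ± 2.53 CPM (SD, n = 3 each), a log2 fold change of 1.36. Without AdSirt4 replicate 1 the log2 fold change was 1.29, and over 18 other ways of processing the data it lay between 1.10 and 1.46. Relative to NFKBIA in the same library, there were 9.90, 9.13 and 9.10 CLEC4E counts per 100 NFKBIA counts in AdCtrl and 15.6, 17.4 and 20.0 in AdSirt4. This ratio did not overlap between the groups. It contains a gene chosen for its difference in these same samples, so it adds no support.

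**Figure D1:**
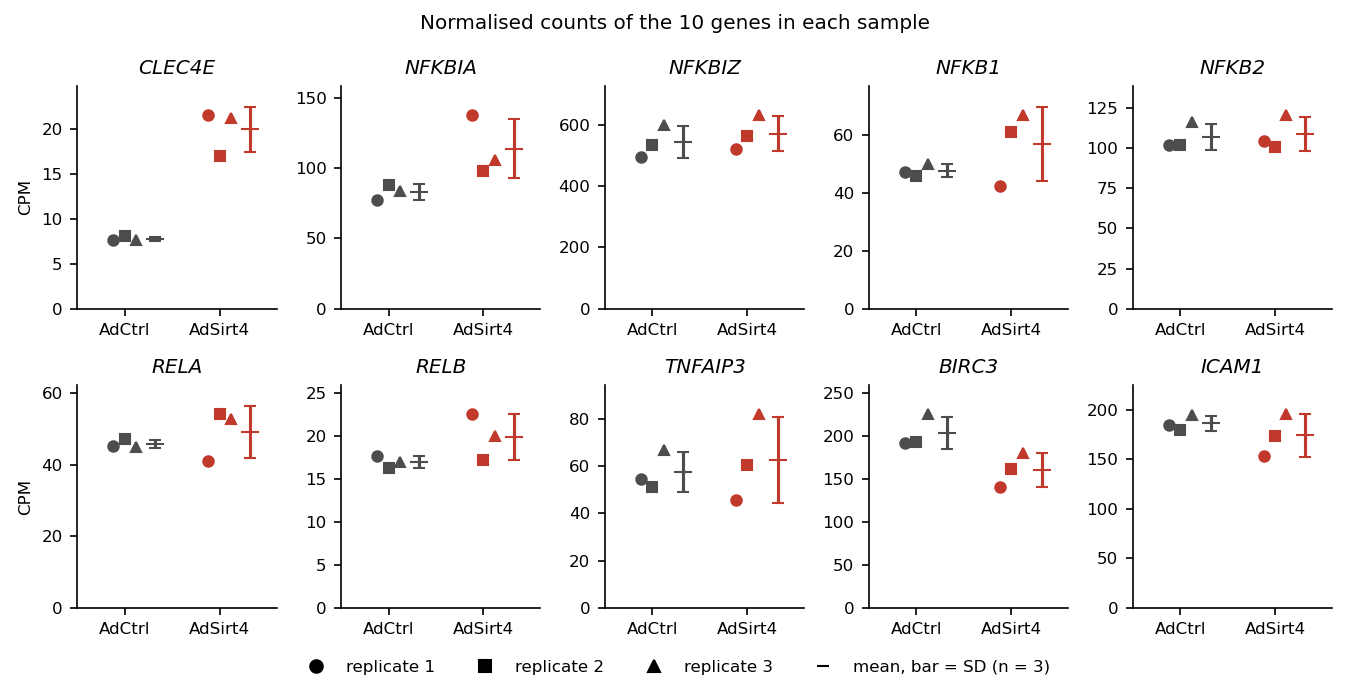
Level of each of the 10 genes in the 6 samples, in CPM on a linear axis of its own for each gene. There is 1 point per sample, the shape giving the replicate and the colour the group, and bars give the mean and SD. CLEC4E, from 7.65 to 8.05 CPM in AdCtrl and from 17.0 to 21.6 CPM in AdSirt4, shows the widest gap relative to its level. NFKBIA and BIRC3 are the other genes whose groups do not overlap.

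The partners that Mincle signals through in myeloid cells differed widely in level. The raw counts of FCER1G, the adaptor that the receptor needs at the membrane of macrophages, were 4, 4 and 0 in AdCtrl and 4, 4 and 6 in AdSirt4. SYK had no count in any AdCtrl sample, none in AdSirt4 replicate 1, and 9 in each of AdSirt4 replicates 2 and 3. Both genes were therefore at or close to the level that a count of 0 allows. The adaptor CARD9 lay between 6.45 and 8.29 CPM over all 6 samples and the paracaspase gene MALT1 between 490 and 570 CPM. The groups overlapped in both genes, although MALT1 was higher in AdSirt4 in 3 of 3 same-numbered pairs. BCL10, which links CARD9 to MALT1, was at 44.2, 41.6 and 43.2 CPM in AdCtrl and at 65.0, 52.6 and 48.3 CPM in AdSirt4. Its groups did not overlap, as was so with AdSirt4 higher in 9.66% of all genes. The log2 fold change was 0.36 and the edgeR adjusted p 0.593. The highest BCL10 level was in AdSirt4 replicate 1, without which the log2 fold change was 0.23 and the edgeR adjusted p 0.0479. In that fit 6.71% of all genes passed. BCL10 was named for its small unadjusted p within its list.

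Since CLEC4E is best known from myeloid cells, 16 myeloid markers were examined next to it. In each group 14 of the 16 were under 1 CPM on average, and TYROBP, FCGR3A, S100A8 and S100A9 had no count in any sample. The exceptions were CD68, a lysosomal gene that many cell types express, and CD14. In neither gene were the groups apart, and of the low markers ITGAM was at 0.148, 0.235 and 0.175 CPM in AdCtrl and at 0.180, 0.348 and 0.529 CPM in AdSirt4. The summed level of the list was 35.3 to 40.5 CPM in AdCtrl and 39.7 to 50.1 CPM in AdSirt4. Without CD68 it was 3.51 to 3.86 CPM in AdCtrl and 3.41 to 3.64 CPM in AdSirt4, a sum to which CD14 contributed most. What part such cells had in the CLEC4E result was not tested. Of 16 tubular epithelial markers, 10 were above 1 CPM, KRT8 being the most abundant, and the list summed to 1930 to 2002 CPM in AdCtrl and 1860 to 2442 CPM in AdSirt4. CDH1, CUBN, LRP2, ANPEP, AQP1 and SLC34A1, which include defining genes of the proximal tubule, were under 1 CPM in both groups.

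**Figure D2:**
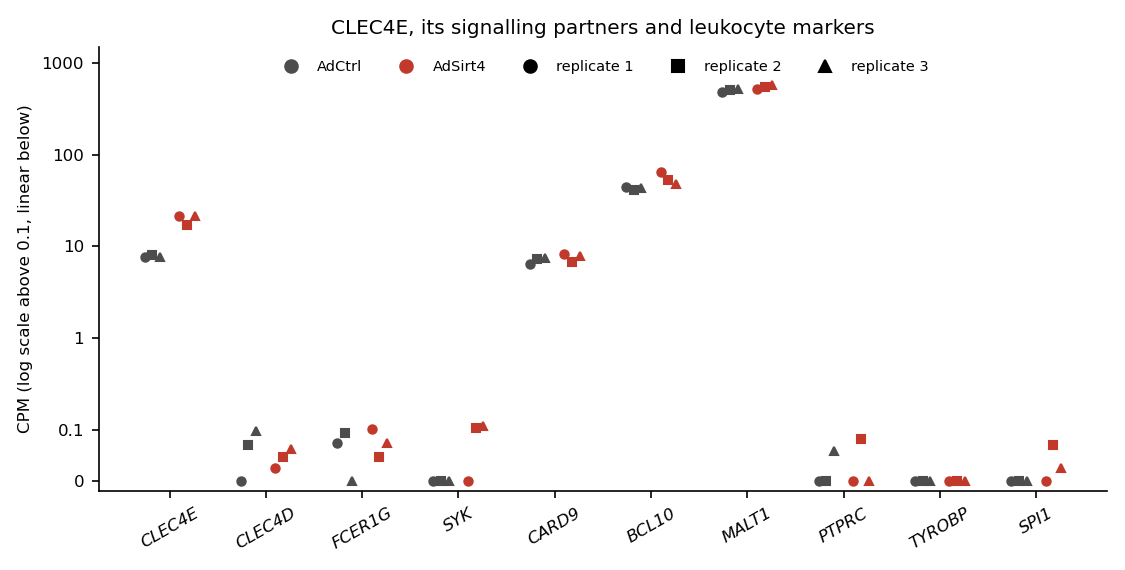
Level of CLEC4E, its signalling partners and 3 leukocyte markers (PTPRC, TYROBP, SPI1) in the 6 samples, in CPM on an axis that is logarithmic above 0.1 and linear below. CARD9, BCL10 and MALT1 are well above background, whereas FCER1G, SYK, CLEC4D and the leukocyte markers stay near 0 in both groups.

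The genes whose pattern over the 6 samples was most like that of CLEC4E were found by the root mean square distance between log2 CPM values centred on each gene's own mean. Among 17719 other genes, DKK1, which encodes a secreted inhibitor of Wnt signalling, was closest, with a distance of 0.0989. It was at 5.33, 5.04 and 4.96 CPM in AdCtrl and at 14.3, 11.6 and 12.0 CPM in AdSirt4. CCL20, a chemokine gene of the NF-κB target list, had a distance of 0.156 and was at 3.07, 4.14 and 4.05 CPM in AdCtrl and at 11.4, 8.62 and 9.14 CPM in AdSirt4. Both had AdSirt4 replicate 1 as their highest sample, as CLEC4E did. The remaining 3 of the closest 5, SCN11A (0.134), LOC107986432 (0.144) and LOC124901411 (0.171), were expressed at low levels. Among the 9 pathway genes, NFKBIA was closest to CLEC4E with 0.468 and BIRC3 farthest with 0.867. Because CLEC4E was chosen for its group difference, a small distance largely means a group difference of like size. The log2 fold changes of the closest 5 ran from 1.11 (SCN11A) to 1.38 (LOC107986432). The search is a description and adds no support.

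Sequences upstream of the transcription start are shown for 4 of the genes, because the 10 genes differ in whether a binding motif of NF-κB, the κB consensus, lies there. RefSeq promoter windows on GRCh38.p14, cut to the 250 bases before each start site, were matched by symbol to 9 of the 10 genes, with 14 start sites in all. RELB was not matched. Capitals mark κB consensus matches in NFKBIA, TNFAIP3 and BIRC3 and matches to TTNNGNAA, the form bound by C/EBP factors, in CLEC4E. The windows are chr14:35404750-35404999 (minus strand) for NFKBIA, chr6:137867009-137867258 (plus strand) for TNFAIP3, chr11:102317234-102317483 (plus strand) for BIRC3 and chr12:8540906-8541155 (minus strand) for CLEC4E. Each sequence reads 5′ to 3′ on the strand of its gene and ends at the base before the start site.
NFKBIA: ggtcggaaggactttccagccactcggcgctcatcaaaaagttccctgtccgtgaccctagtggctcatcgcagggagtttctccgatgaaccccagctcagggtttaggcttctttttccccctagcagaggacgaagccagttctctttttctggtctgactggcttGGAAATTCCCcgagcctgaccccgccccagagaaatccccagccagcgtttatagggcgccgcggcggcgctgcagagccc
TNFAIP3: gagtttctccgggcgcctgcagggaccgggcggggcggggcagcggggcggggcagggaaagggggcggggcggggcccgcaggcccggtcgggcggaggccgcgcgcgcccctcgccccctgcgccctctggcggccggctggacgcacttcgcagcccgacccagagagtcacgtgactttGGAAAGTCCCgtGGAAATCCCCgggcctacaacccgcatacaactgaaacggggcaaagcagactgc
BIRC3: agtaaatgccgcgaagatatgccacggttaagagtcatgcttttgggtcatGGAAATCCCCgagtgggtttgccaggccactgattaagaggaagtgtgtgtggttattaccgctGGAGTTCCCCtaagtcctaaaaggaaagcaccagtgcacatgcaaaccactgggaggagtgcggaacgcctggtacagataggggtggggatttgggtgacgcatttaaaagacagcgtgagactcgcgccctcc
CLEC4E: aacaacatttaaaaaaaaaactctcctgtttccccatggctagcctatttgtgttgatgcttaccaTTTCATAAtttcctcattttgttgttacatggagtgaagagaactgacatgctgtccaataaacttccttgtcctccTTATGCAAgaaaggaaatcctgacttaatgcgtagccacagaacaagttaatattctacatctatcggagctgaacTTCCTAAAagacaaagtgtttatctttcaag

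Both strands were searched. The single NFKBIA match, 81 bases before the start, reads GGGAATTTCC on the opposite strand, and the same letters occur on the gene's strand 49 bases before the first NFKB1 start and 223 bases before the first NFKBIZ start. TNFAIP3 holds a pair of matches, GGGACTTTCC at 67 bases and GGGGATTTCC at 55 bases before the start, and a TTNNGNAA match overlaps the first of them. BIRC3 holds matches at 199 and 135 bases before the start. In all, 6 of the 9 genes held a κB match before at least 1 start site, in 8 of 14 windows, whereas 9.96% of 35116 RefSeq windows of the same length held one. CLEC4E, RELA and ICAM1 held no match to this strict consensus in these windows. Sequences 1 base off the consensus were not counted, and the ICAM1 window holds one, TGGAAATTCC, which departs from it in the first base. The absence of a match is therefore not the absence of a κB site. CLEC4E held 3 TTNNGNAA matches, at 184, 107 and 31 bases before its start, and 33.2% of all windows held at least 1. The motif was not particular to CLEC4E, as 5 of the 9 genes held it, the others being NFKBIZ, NFKB2, RELA and TNFAIP3. A match is a stretch of letters, and binding was not measured. NFKBIA, whose samples were higher in AdSirt4, and BIRC3, whose samples were lower, both held κB matches.

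NFKBIA encodes IκBα, the main inhibitor that NF-κB induces against itself, on chromosome 14 (chr14:35401513-35404749). It was at 77.3, 88.2 and 84.0 CPM in AdCtrl and at 137.8, 97.7 and 106.2 CPM in AdSirt4. All AdSirt4 samples were above all AdCtrl samples, and AdSirt4 replicate 1 was well above the other samples of its group. This amounted to a log2 fold change of 0.45 (SE 0.146, 95% interval 0.11 to 0.80), and edgeR's p was 0.0172 before and 0.553 after adjustment. The exact permutation test gave a two-sided p of 0.1, which is the smallest that 3 samples against 3 can reach. Without AdSirt4 replicate 1 the log2 fold change was smaller, at 0.29, and the adjusted p was 0.0238 in edgeR, with 2 samples left in that group. With each library's trend on length removed it was 0.36, with an edgeR adjusted p of 0.250. At 1.78 kb, the transcript length implied by the deposited values, NFKBIA is the shortest of the 10 genes. Its value in AdSirt4 replicate 1 exceeded the mean of the other samples of that group by 0.44 on the log2 scale.

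NFKBIZ encodes IκBζ, a nuclear member of the IκB family that acts with NF-κB at a subset of its targets. Its level was 494.7, 534.1 and 598.7 CPM in AdCtrl and 519.4, 561.4 and 631.0 CPM in AdSirt4. The samples of the groups interleaved, but between samples with the same number AdSirt4 was higher in 3 of 3 pairs. Its log2 fold change was 0.07 (95% interval -0.23 to 0.38, edgeR adjusted p = 0.864), 0.13 without AdSirt4 replicate 1 and -0.0057 without AdSirt4 replicate 3. TNFAIP3, which encodes A20, a ubiquitin-editing enzyme that shuts off signals to IKK, was at 54.5, 50.9 and 66.9 CPM in AdCtrl and at 45.7, 60.2 and 81.8 CPM in AdSirt4. AdSirt4 held both the lowest and the highest sample, so the groups overlapped fully. For TNFAIP3 the fold change was 0.12 on the log2 scale (95% interval -0.39 to 0.64, edgeR adjusted p = 0.861), the widest interval of the 9 genes. It was 0.30 without AdSirt4 replicate 1 and -0.12 without AdSirt4 replicate 3, so its direction rested on single samples.

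The subunit genes had no difference that passed the test over all 6 samples. NFKB1, which encodes the p105 precursor of p50, was at 47.0, 45.8 and 50.1 CPM in AdCtrl and at 42.5, 61.1 and 66.9 CPM in AdSirt4. AdSirt4 replicate 1 was the lowest of the 6 samples and AdSirt4 replicates 2 and 3 were the highest. For NFKB1 the log2 fold change was 0.26 (95% interval -0.15 to 0.66, edgeR adjusted p = 0.732), and without AdSirt4 replicate 1 it was 0.42 with an adjusted p of 0.00434. RELA, which encodes p65, the activating partner of p50, was at 45.2, 47.1 and 45.0 CPM in AdCtrl and at 40.9, 54.0 and 52.6 CPM in AdSirt4. As in NFKB1, AdSirt4 replicate 1 lay below every control and AdSirt4 replicates 2 and 3 above every control. RELA had a log2 fold change of 0.10 (95% interval -0.19 to 0.40, edgeR adjusted p = 0.810), and 0.22 without that sample (adjusted p = 0.0379). Within a library there were 104, 97.2 and 111 NFKB1 counts per 100 RELA counts in AdCtrl and 104, 113 and 127 in AdSirt4, so the ratio of these partners overlapped between the groups. With the trend on length removed, and all 6 samples kept, the log2 fold change was 0.27 for NFKB1 (edgeR adjusted p = 0.409) and 0.07 for RELA (edgeR adjusted p = 0.823).

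NFKB2 and RELB encode p100 and RelB, the pair that the noncanonical branch of the pathway uses downstream of receptors such as CD40. NFKB2 was at 101.9, 102.2 and 116.3 CPM in AdCtrl and at 104.6, 100.7 and 120.6 CPM in AdSirt4. Its samples interleaved, and the log2 fold change was 0.02 (95% interval -0.24 to 0.29, edgeR adjusted p = 0.945) and 0.05 without AdSirt4 replicate 1. RELB was at 17.6, 16.3 and 16.9 CPM in AdCtrl and at 22.5, 17.1 and 19.9 CPM in AdSirt4. The lowest AdSirt4 sample of RELB lay below the highest AdCtrl sample, so the groups overlapped by a small margin, and AdSirt4 was higher in 3 of 3 same-numbered pairs. RELB had a log2 fold change of 0.23 (95% interval -0.06 to 0.52, edgeR adjusted p = 0.702), and 0.12 without AdSirt4 replicate 1.

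BIRC3 and ICAM1 are classical NF-κB targets. BIRC3, on chromosome 11 (chr11:102317484-102339403), encodes cIAP2, a ubiquitin ligase that works at the tumour necrosis factor receptor and restrains cell death. It was at 192.6, 193.2 and 225.5 CPM in AdCtrl and at 140.5, 161.8 and 180.5 CPM in AdSirt4. All AdSirt4 samples were below all AdCtrl samples, the opposite order to NFKBIA. BIRC3 had a log2 fold change of -0.34 (SE 0.128, 95% interval -0.64 to -0.04), edgeR's p was 0.0329 before and 0.612 after adjustment, and the two-sided exact permutation p was 0.1. It was -0.26 without AdSirt4 replicate 1 (edgeR adjusted p = 0.0725) and -0.25 with the trend on length removed (adjusted p = 0.405). As a ratio within each library, which combines a gene already seen higher with one already seen lower and adds no support to either, there were 40.1, 45.6 and 37.3 NFKBIA counts per 100 BIRC3 counts in AdCtrl and 98.1, 60.4 and 58.8 in AdSirt4. BIRC3 has the longest implied transcript of the 10 genes at 7.87 kb and NFKBIA the shortest. The ratio was highest in AdSirt4 replicate 1, the sample with the trend on length. ICAM1, which encodes an adhesion molecule for leukocytes, was at 184.6, 179.5 and 194.7 CPM in AdCtrl and at 152.8, 173.7 and 195.3 CPM in AdSirt4. Its groups overlapped, the highest AdSirt4 sample lying just above the highest AdCtrl sample, and the log2 fold change was -0.10 (95% interval -0.37 to 0.18, edgeR adjusted p = 0.809). It was -0.02 without AdSirt4 replicate 1 and -0.19 without AdSirt4 replicate 3.

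**Figure D3:**
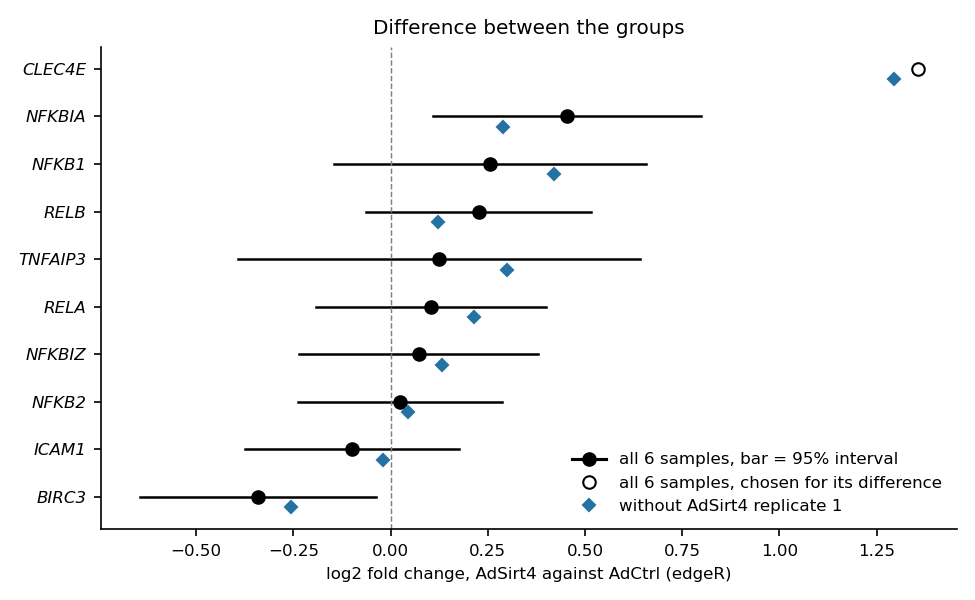
Log2 fold change of AdSirt4 against AdCtrl for the 10 genes from edgeR, with 95% intervals for the 9 tested genes and diamonds for the fit without AdSirt4 replicate 1. The intervals of NFKBIA (0.11 to 0.80) and BIRC3 (-0.64 to -0.04) lie on opposite sides of 0, and those of the other 7 genes span it.

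Counted over the 9 tested genes, none passed an adjusted p of 0.05 in edgeR, where 0.0113% of all 17720 genes did, or in DESeq2, where 0.661% did. At an unadjusted p under 0.05, 1 of 9 was higher in edgeR (NFKBIA), against 4.43% of all genes, and 1 of 9 was lower (BIRC3), against 3.5%. DESeq2 gave the same 2 genes at that threshold, against 5.44% of all genes. The groups did not overlap in 1 of 9 genes with AdSirt4 higher, against 9.66% of all genes, and in 1 of 9 with AdSirt4 lower, against 9.77%. The counts of non-overlapping genes were thus near the background. Between same-numbered samples, AdSirt4 was higher in all 3 pairs in 3 of the 9 genes (NFKBIA, NFKBIZ and RELB), against 18.3% of all genes, and lower in all 3 pairs in 1 (BIRC3), against 17.7%. In 7 of the 9 genes the log2 fold change was above 0, as it was in 53.4% of all tested genes.

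Leaving out AdSirt4 replicate 1 gave other counts, in a fit where the remaining AdSirt4 libraries were deeper than every AdCtrl library. An adjusted p under 0.05 was then reached by 3 of the 9 genes (NFKBIA, NFKB1 and RELA, all higher in AdSirt4), where 6.71% of all genes passed. When the sample was kept but given a lower weight, with voom and sample quality weights, 4 of the 9 genes passed (those 3 and BIRC3, which was lower), where 8.74% of all genes did. The deviation of AdSirt4 replicate 1 from the other samples of its group was 0.44 for NFKBIA, -0.59 for NFKB1, -0.38 for RELA and -0.62 for TNFAIP3 on the log2 scale. NFKBIA lay on the trend of all genes with length, whereas RELA, at 2.86 kb, lay below 0 although genes in its length bin had a median of 0.19. With each library's trend on length removed and all 6 samples kept, 0 of the 9 genes passed in edgeR, where 8 of all 17720 genes did. The part of the length trend in these results was not tested.

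**Figure D4:**
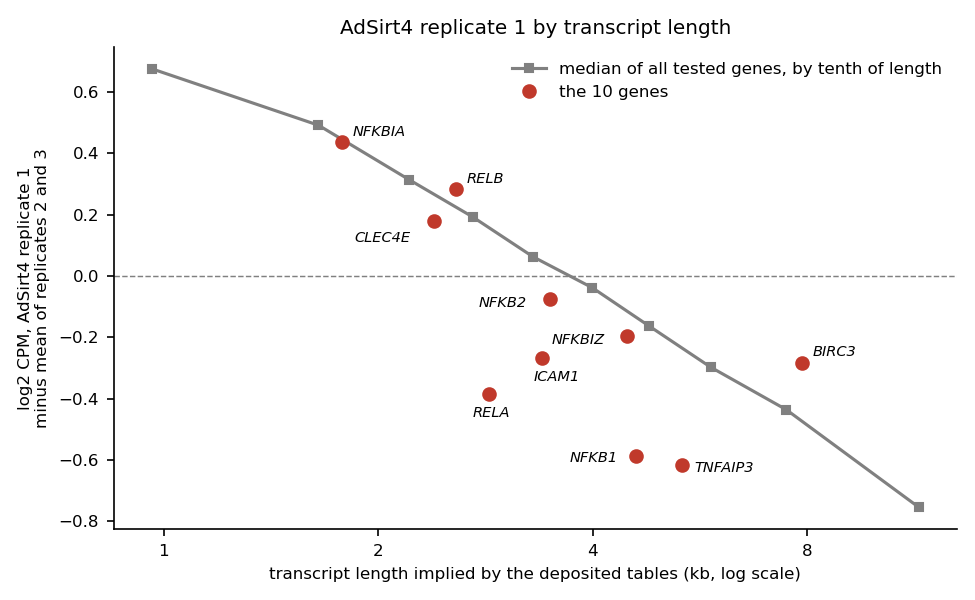
Log2 CPM of AdSirt4 replicate 1 minus the mean of AdSirt4 replicates 2 and 3, against transcript length in kb on a log axis, for the 10 genes (red) and as the median of all tested genes in 10 length bins (grey). The grey line falls from 0.68 to -0.75, NFKBIA (0.44) and RELB lie near it, and RELA (-0.38), NFKB1 (-0.59) and TNFAIP3 (-0.62) lie below it.

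Levels per transcript length, read from the second deposited table as FPKM, placed the genes in a similar order in both groups. In AdCtrl, NFKBIZ had the highest level with 122.7 ± 15.2 FPKM (SD, n = 3), followed by ICAM1 with 55.5 ± 4.13 and NFKBIA with 47.2 ± 3.08 FPKM. NFKB2 (31.1 FPKM) and BIRC3 (26.2 FPKM) came next and overlapped, as did TNFAIP3 (10.9 FPKM) and NFKB1 (10.5 FPKM) further down, with RELA (16.2 FPKM) between these pairs. Within each AdCtrl sample NFKB2 was above BIRC3, whereas the order of TNFAIP3 and NFKB1 differed between samples. RELB was at 6.64 ± 0.394 FPKM, and CLEC4E was lowest with 3.28 ± 0.0608 FPKM. In AdSirt4, NFKBIZ was again highest with 126.1 ± 18.1 FPKM. NFKBIA stood above ICAM1 within each AdSirt4 sample, with means of 62.7 ± 8.45 and 50.7 ± 8.48 FPKM, although their ranges over the samples overlapped. CLEC4E, with 8.20 ± 0.952 FPKM, had a mean above that of RELB, with 7.59 ± 0.759 FPKM, and these ranges overlapped too. Sample by sample in AdSirt4, CLEC4E was at 8.37, 7.18 and 9.06 FPKM and RELB at 8.14, 6.73 and 7.91 FPKM. CLEC4E was thus below RELB without overlap in AdCtrl and slightly above it within each AdSirt4 sample.

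Lists of other pathway genes, written with earlier results of these data known, were set beside the 10 genes. They were described by counts and medians, which are no independent support, beside a median log2 fold change of 0.02 over all tested genes. Among 11 subunit and IκB genes, 9 were above 0 with a median log2 fold change of 0.18, and NFKBIA was the only member with an unadjusted p under 0.05 in edgeR. REL, the subunit gene of c-Rel, and BCL3, which encodes a nuclear IκB protein, were the members below 0. Both were picked out after their values were seen. REL was at 29.5, 31.8 and 32.1 CPM in AdCtrl and at 14.1, 28.0 and 34.5 CPM in AdSirt4, so its log2 fold change of -0.28 rested on AdSirt4 replicate 1, and without that sample the means were level, at 0.00082 on the log2 scale. BCL3 was at 17.8 ± 1.77 CPM in AdCtrl and 15.2 ± 0.875 CPM in AdSirt4 (SD, n = 3 each), a log2 fold change of -0.23, and -0.27 without that sample. Of 24 genes for the IKK complex and its adaptors, 12 were above 0, the median was -0.00035 and none had an unadjusted p under 0.05. Of 16 tested negative feedback genes, 11 were above 0 with a median of 0.13, and NFKBIA alone had an unadjusted p under 0.05. Without AdSirt4 replicate 1, 3 of the 11 subunit and IκB genes passed an edgeR adjusted p of 0.05. So did 3 of the 16 feedback genes and 0 of the 24 IKK genes, where 6.71% of all genes did. Those that passed were higher in AdSirt4, and NFKBIA is in the first 2 of these lists.

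Among 14 tested receptors that signal to NF-κB, 11 were above 0 with a median of 0.10, and 3 had an unadjusted p under 0.05 in edgeR, all higher in AdSirt4. Over all tested genes 53.4% were above 0 and 4.43% were higher at that threshold. Without AdSirt4 replicate 3, 7 of the 14 receptors were above 0 with a median of 0.03, and 8 of the 16 negative feedback genes with a median of 0.03. CD40, a receptor of the tumour necrosis factor family, was at 51.8 ± 1.96 CPM in AdCtrl and 68.5 ± 6.55 CPM in AdSirt4 (n = 3 each, log2 fold change 0.40, edgeR adjusted p = 0.494). TNFRSF12A, the receptor for TWEAK, had a log2 fold change of 0.32, and TLR2, a receptor for bacterial lipoproteins, one of 0.25. None of the 3 passed after adjustment. Without AdSirt4 replicate 1, the log2 fold change of CD40 was 0.34 with an edgeR adjusted p of 0.0139. In that fit 1 of the 14 receptors passed, where 6.71% of all genes did, so this count was near the background.

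Of 37 tested NF-κB target genes, 31 were above 0 with a median log2 fold change of 0.26. At an unadjusted p under 0.05, 15 were higher and 2 were lower in AdSirt4, against 4.43% and 3.5% of all genes, and none passed after adjustment in edgeR. DESeq2 called 8 higher and 1 lower at an adjusted p under 0.05, against 0.661% of all genes in either direction. Without AdSirt4 replicate 1, edgeR gave 23 higher and 3 lower before adjustment, and 13 higher and 1 lower after it, against 6.71% of all genes in either direction. The list includes BIRC3 and ICAM1, the former being 1 of the 2 lower genes and TAP1, which encodes a peptide transporter and was named after its value was seen, the other. CCL20 had the largest value, with 3.75 ± 0.594 CPM in AdCtrl and 9.71 ± 1.46 CPM in AdSirt4 (log2 fold change 1.37, edgeR adjusted p = 0.239). The cytokine gene IL6 was at 19.2, 19.6 and 25.1 CPM in AdCtrl and at 43.5, 37.0 and 43.7 CPM in AdSirt4 (log2 fold change 0.96, edgeR adjusted p = 0.255). The chemokine gene CXCL2 was at 45.3, 48.9 and 53.7 CPM in AdCtrl and at 118.7, 73.2 and 84.6 CPM in AdSirt4 (log2 fold change 0.90, edgeR adjusted p = 0.494). Without AdSirt4 replicate 1, these log2 fold changes were 1.24 for CCL20, 0.92 for IL6 and 0.67 for CXCL2, with edgeR adjusted p-values of 0.000987, 0.00497 and 0.00206. The AdSirt4 samples were above the AdCtrl samples in all 3 genes, whereas BIRC3 and ICAM1 were among the target genes below 0. Of the 14 genes for Mincle signalling and its gene neighbours, 7 were tested, and their median log2 fold change was 0.11 with CLEC4E included.

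**Figure D5:**
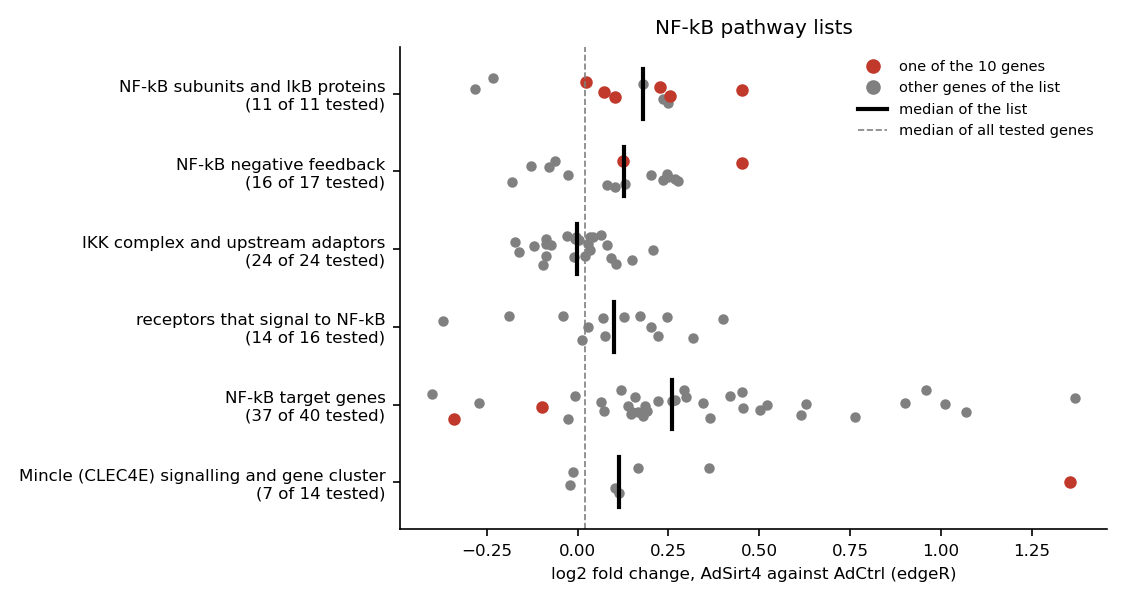
Log2 fold change of AdSirt4 against AdCtrl from edgeR for the tested genes of 6 pathway lists, with the 10 genes in red, the median of each list as a bar and the median of all tested genes as a dashed line. The median is 0.26 for the target genes and -0.00035 for the IKK complex and adaptors, and CLEC4E (1.36) lies far from the rest of its list.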

How the data were processed

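RNA-seq of 6 samples was analysed, 3 AdCtrl and 3 AdSirt4, grouped by the sample titles. The authors deposited raw counts per gene and a further table without a named unit that was read as FPKM, because 74.0% of 15894 genes had the same implied length in all samples within 5%. The submitters' processing notes name fastp 0.21.0, HISAT2 2.1.0, StringTie 2.1.5, DESeq2 1.30.1 and hg38. Whether counting used strand is not given in the sources used here. The cell type comes from the labels.

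Counts were tested with edgeR 4.0.16 (R 4.3.3, TMM normalization, quasi-likelihood test, Benjamini-Hochberg adjustment over 17720 genes with the minimum count of filterByExpr at 10). CPM values use TMM library sizes. SDs are between samples, and permutation tests (scipy 1.17.1) were exact and two-sided on log2 CPM. Alternatives were DESeq2 1.42.0, limma 3.58.1 on log2(FPKM + 1) and log2(FPKM + 0.1), voom with sample quality weights, RLE normalization, other filters, removal of each library's trend on length, a replicate block, and leaving out each sample. The scripts were tested on simulated data.

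Deviations of same-numbered samples from their group means correlated at 0.168, 0.155 and 0.167, and those of differently numbered samples at -0.180 to 0.0271, so the numbers were taken to pair the samples. The labels state no shared day or batch. No pair of replicates was a copy, as chi-square values per gene ranged from 9.36 to 213.

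The 10 genes and the pathway lists were chosen with earlier results of these data known. Genes named beside them were up to 3 per list with the smallest unadjusted p under 0.05, the 5 nearest to CLEC4E in pattern, and those stated to have been picked after their values were seen. Promoter windows are RefSeq's, on GRCh38.p14.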

Additional observations from a re-analysis of the deposited data

How the results depend on the processing

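CLEC4E, NFKBIA, NFKB1, RELA and RELB were higher and BIRC3 and ICAM1 lower in AdSirt4 under all 18 alternatives, with log2 fold changes of 1.10 to 1.46 for CLEC4E (1.10 on log2(FPKM + 1), a scale that understates low genes), 0.28 to 0.56 for NFKBIA and -0.43 to -0.25 for BIRC3. When 1 sample was left out, NFKBIZ lay between -0.0057 (without AdSirt4 replicate 3) and 0.15, NFKB2 between -0.058 and 0.089, and TNFAIP3 between -0.12 and 0.30. NFKB2 was at -0.0093 with limma on log2(FPKM + 1), with or without the replicate block and with a mean FPKM of at least 1, at -0.0097 with 0.1 added, at -0.0081 and -0.0075 without AdCtrl replicates 1 and 2, and at -0.058 without AdSirt4 replicate 3, which also gave the -0.12 of TNFAIP3. Of the 9 tested genes, 0 passed with all samples in edgeR, 4 with voom weights, and 0 to 3 when 1 sample was left out, the 3 being without AdSirt4 replicate 1. Of the 96 other tested genes of the pathway lists, 0 passed in edgeR (0.0113% of all genes did), 9 in DESeq2 (0.661%), 1 with the length trend removed (8 of all 17720 genes), 21 with voom weights (8.74%), and 0 to 18 when 1 sample was left out (18 without AdSirt4 replicate 1, where 6.71% did). With the replicate block 0 of the 9 genes passed, and the pairing changed no other call among them. Of 180 values for the 10 genes under the alternatives, 9 changed direction and 7 newly passed the threshold. CLEC4E had no test, and 3 of its values, those on log2(FPKM + 1), kept their direction but were counted as moved in size. The other 161 kept their direction and, where tested, their side of the threshold. Of 211 values for the other named genes, 179 did, 26 newly passed the threshold, 6 no longer did, and none changed direction. The cause of these shifts was not tested. SIRT4 had an edgeR adjusted p of 0.0559, 0.203 and 0.186 without AdCtrl replicates 1, 2 and 3. With 3 samples a group, an exact permutation p cannot go below 0.1, so adjusted p-values rest on the spread that edgeR shares between genes.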
